A study of Mus musculus with 14 samples.

Results

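The genes described here are 10 mRNAs linked to the earliest neurons of the cerebral cortex. These neurons are the Cajal-Retzius cells of the marginal zone and the neurons of the subplate. Dab1 acts in the neurons that receive Reelin, the protein encoded by Reln. The 10 genes are Reln, Dab1, Trp73, Lhx1, Lhx5, Calb2, Ebf2, Ebf3, Nxph4 and Cplx3. They were chosen by gene symbol among the 41934 genes listed in the deposited tables, each symbol had 1 entry, and all 10 are protein-coding. The study sequenced RNA of whole brains from 14 male fetuses of the C57BL/6J background strain. At E13.5 the fetuses were 4 Dio3+/+ and 2 Dio3-/-, and at E18.5 they were 3 Dio3+/+ and 5 Dio3-/-. Dio3 encodes the type 3 deiodinase, which inactivates thyroid hormones, and Dio3-/- fetuses carry a mutated Dio3 whose mRNA is still made while the enzyme is inactive. The mutation is present in every cell, so that these fetuses lack the active enzyme throughout the body. For each gene and age, the values used here are the authors' mean normalized count over all libraries of the age, both genotypes together. The tables also hold the authors' own comparison of the genotypes, which is not used here, so that no difference between Dio3+/+ and Dio3-/- brains is described.

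Cajal-Retzius cells settle under the pial surface and secrete Reelin, the large extracellular protein encoded by Reln. Reelin binds the lipoprotein receptors Vldlr and Lrp8 on migrating neurons, which then phosphorylate the adaptor Dab1, and this signal sets the layering of the cortex. Subplate neurons lie under the cortical plate, receive early thalamic axons, and, like Cajal-Retzius cells, largely disappear after birth. Most of these genes are also expressed outside the cortex. Reln is made by granule cells of the cerebellum and by GABA neurons, Lhx1 and Lhx5 by neurons of the diencephalon, hindbrain and cerebellum, and Calb2 by many neurons of the thalamus, midbrain and olfactory bulb. In RNA of a whole brain these sources cannot be told apart, nor can fewer cells of a type be told apart from less RNA per cell.

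Depth of the libraries could be read in part from the lowest values of the tables. A gene with 1 read in 1 library has a mean that depends only on the size factor of that library, and such values fell on 6 levels at E13.5 and on 8 levels at E18.5, as many as there were libraries. The size factors behind them, after the authors' adjustment for batch, ran from 0.827 to 1.15 at E13.5 and from 0.947 to 1.17 at E18.5, so that the libraries of an age differed by up to 1.39 and 1.23 times. Which library had which size factor was not known. Levels are given below in CPM, the mean normalized count per 1000000 of the sum of all means at the age, since the authors normalized each age separately. The means summed to 28582629 at E13.5 and to 24565726 at E18.5, and 31372 and 32498 genes had reads. Gm26917 alone took 4.62% of the sum at E13.5 and 2.22% at E18.5. Dio3, the mutated gene, had a mean normalized count of 99.0 at E13.5 and of 129 at E18.5. These pooled values do not check the genotype labels. As a check of the tissue, the neuronal markers Tubb3, Dcx, Map2, Stmn2, Snap25 and Elavl3 were all detected, with a summed level of 6500 CPM at E13.5 and 8083 at E18.5, while the muscle regulators Myod1 and Myog had mean normalized counts of 9.15 and 10.7 at E13.5 and of 2.75 and 1.15 at E18.5. The muscle actin gene Acta1 had 48.7 and 109.

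Among the 10 genes, the expression of Lhx1, Lhx5, Ebf2 and Ebf3 was much lower at E18.5 than at E13.5, that of Calb2 and Cplx3 was much higher, and Reln and Dab1 were moderately higher. The pooled means carry no spread over fetuses, so that no difference between the ages was tested. The share of Dio3-/- fetuses also differed between the ages, so that age and genotype mix cannot be told apart, and the labels do not give the sequencing batch of a library. At least 2-fold lower at E18.5 were 4 of the 10 genes, against 6.36% of the 17794 genes whose mean normalized count reached 10 at each age. With the means as deposited, unscaled between the ages, Nxph4 was a further such gene at a log2 ratio of -1.08, which made 5 of the 10 against 10.1% of those genes. At least 2-fold higher were 2 of the 10, against 11.1% of those genes. Any higher level was found for 4 of the 10 genes, against 45.6% of those genes. The median log2 ratio of the 10 genes was -0.51, where that of all 17794 genes was -0.07. The 10 genes therefore lay on both sides of the distribution, with 4 of them below its 5th percentile of -1.13 and Calb2 above its 95th percentile of 1.59.

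**Figure D1:**
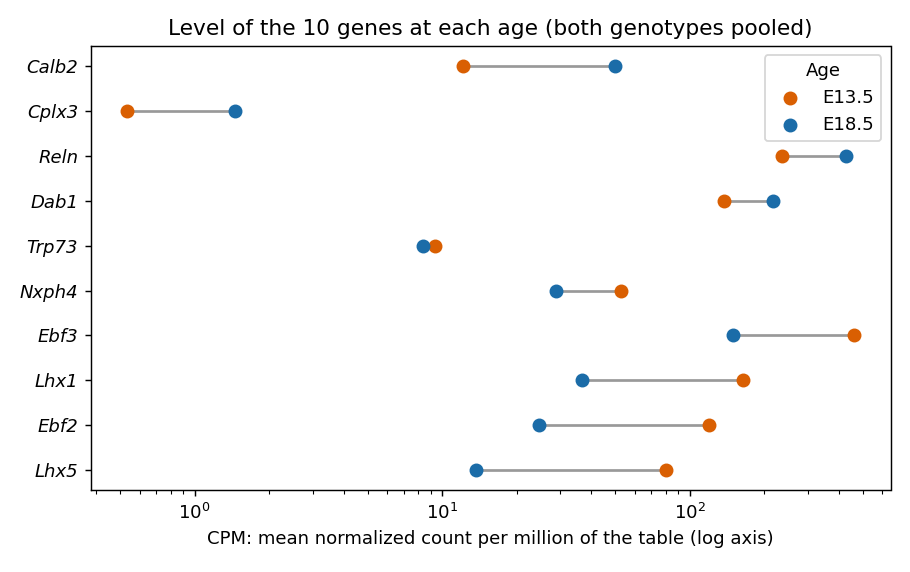
Levels of the 10 genes in CPM (log axis) at E13.5 (orange) and E18.5 (blue), both genotypes pooled, with no error known. Lhx5 went from 80.0 to 13.7 and Calb2 from 12.1 to 50.03, while Trp73 was at 9.34 and 8.40.

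**Figure D2:**
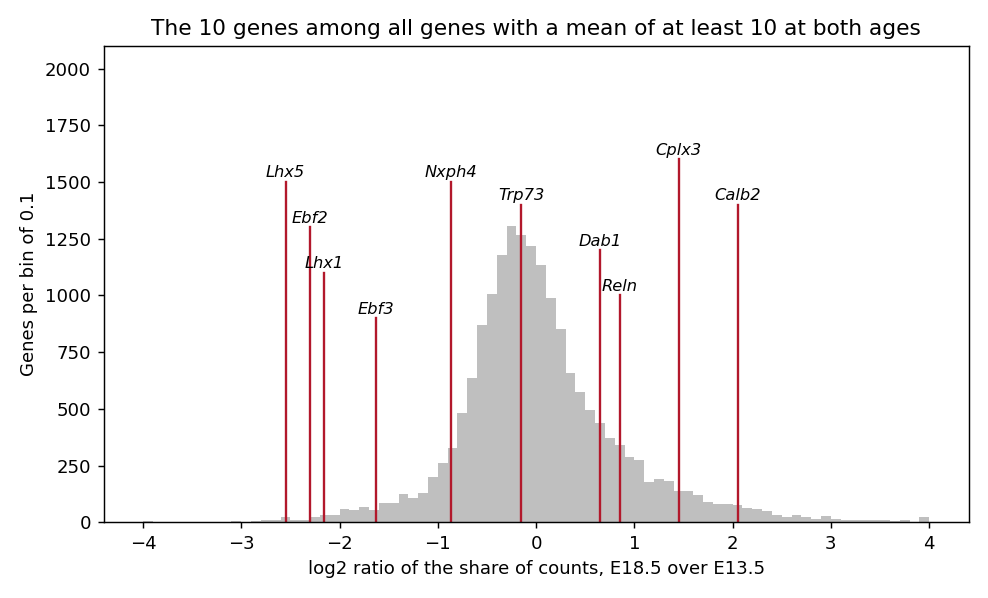
Distribution of the log2 ratio of E18.5 over E13.5 over 17794 genes (grey, values beyond the axis placed in its last bins), with a red line for each of the 10 genes. The height of the lines has no meaning. Lhx5, Ebf2, Lhx1 and Ebf3 lie in the lower tail between -2.55 and -1.63, and Calb2 lies at 2.05.

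Reln (ENSMUSG00000042453.14, chromosome 5 of GRCm38 from 21884454 to 22344702, minus strand) had one of the highest counts of the set. The authors' mean normalized count was 6741 at E13.5 and 10459 at E18.5. This placed Reln at percentile 97.7 of all genes with reads at E13.5 and at percentile 99.2 at E18.5. In CPM Reln was at 236 and 426, a level 1.81-fold higher at E18.5. Dab1 (ENSMUSG00000028519.16, chromosome 4 from 103619359 to 104744844, plus strand), which carries the Reelin signal inside the receiving neuron, had mean normalized counts of 3935 and 5318. In CPM it was at 138 at E13.5 and 216 at E18.5, 1.57-fold higher. The ligand and its adaptor were thus each higher at the later age. Among all genes with a mean of at least 10 at both ages, their log2 ratios lay at percentiles 86.4 (Reln) and 82.1 (Dab1). Per kilobase of merged exons the ratio of Reln to Dab1 was 0.571 at E13.5 and 0.655 at E18.5.

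The region just before the start of transcription is shown for the 4 genes that stand for the groups of this text, Reln for the secreted ligand, Lhx1 and Ebf3 for the transcription factors that were lower at E18.5, and Cplx3 for the subplate. Each sequence is that of RefSeq on GRCm38.p6, the 250 bases before the annotated start, read 5′ to 3′ on the strand of the gene, and capitals mark AGGTCA, the half-site that thyroid hormone receptors share with other nuclear receptors.
Reln, chr5:22344706-22344955, minus strand: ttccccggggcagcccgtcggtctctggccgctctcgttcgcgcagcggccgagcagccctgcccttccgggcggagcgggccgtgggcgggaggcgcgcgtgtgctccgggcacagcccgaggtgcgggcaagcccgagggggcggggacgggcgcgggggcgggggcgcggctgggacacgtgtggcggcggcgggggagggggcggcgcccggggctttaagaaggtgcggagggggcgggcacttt
Lhx1, chr11:84525535-84525784, minus strand: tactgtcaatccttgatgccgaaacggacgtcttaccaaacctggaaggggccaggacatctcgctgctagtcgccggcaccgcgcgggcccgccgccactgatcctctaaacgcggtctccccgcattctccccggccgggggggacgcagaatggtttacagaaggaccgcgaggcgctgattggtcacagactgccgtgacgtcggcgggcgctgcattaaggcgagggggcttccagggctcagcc
Ebf3, chr7:137314446-137314695, minus strand: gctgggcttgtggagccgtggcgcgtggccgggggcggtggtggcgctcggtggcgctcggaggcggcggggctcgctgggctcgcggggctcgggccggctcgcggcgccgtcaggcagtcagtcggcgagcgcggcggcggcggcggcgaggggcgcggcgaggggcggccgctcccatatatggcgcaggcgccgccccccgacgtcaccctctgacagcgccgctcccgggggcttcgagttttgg
Cplx3, chr9:57606282-57606531, minus strand: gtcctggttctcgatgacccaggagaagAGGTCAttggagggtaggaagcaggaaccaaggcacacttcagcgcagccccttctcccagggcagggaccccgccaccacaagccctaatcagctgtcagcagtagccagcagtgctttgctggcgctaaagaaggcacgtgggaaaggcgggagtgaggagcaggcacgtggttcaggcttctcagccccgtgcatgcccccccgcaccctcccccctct
The RefSeq table held 8 such windows for 6 of the 10 genes, namely Reln, Dab1, Trp73, Lhx1, Ebf3 and Cplx3, with 2 windows each for Dab1 and Trp73. Searched on both strands, AGGTCA was present in 1 of the 8 windows, that of Cplx3, and in 14.0% of the 32851 windows of all genes. The letters TAATTA, the core bound by many homeodomain proteins such as Lhx1 and Lhx5, were in none of the 8 windows and in 4.84% of all windows. The windows of Reln and Ebf3 were both 80.0% G and C, at percentile 98.8 of all windows, and held 37 and 43 CpG dinucleotides. The Lhx1 window held 26 CpG dinucleotides at 64.8% G and C, and that of Cplx3 held 9 at 62.8%. The median window of all genes was 52.4% G and C with 6 CpG dinucleotides.

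Both Reelin receptors were higher at E18.5. Vldlr, the very low density lipoprotein receptor, was at 81.6 CPM at E13.5 and at 147 at E18.5, 1.80-fold higher. Lrp8, the other receptor, was at 255 and 359, 1.41-fold higher. Inside the cell, 2 of 6 genes of the signal were higher and 4 were lower, and none differed by 2-fold. Among the 17794 genes with a mean of at least 10 at each age, 45.6% were higher. Fyn, the Src family kinase that phosphorylates Dab1, was 1.33-fold higher, and Pafah1b1, which encodes the dynein regulator Lis1, was 1.31-fold higher. The log2 ratios of the kinase Src (-0.38), the adaptors Crk (-0.24) and Crkl (-0.53) and the exchange factor Rapgef1 (-0.03) lay below 0. Among genes for the turnover of Dab1 and Reelin, Adamts3, the protease that cleaves and inactivates Reelin, was 2.68-fold higher, at 15.4 CPM at E13.5 and 41.3 at E18.5. The ubiquitin ligase subunits that act on phosphorylated Dab1 differed less, with log2 ratios of -0.07 for Cul5, -0.48 for Rnf7 and 0.09 for Socs7.

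Lhx1 and Lhx5 encode closely related LIM homeodomain transcription factors, which Cajal-Retzius cells share with several groups of neurons of the diencephalon and hindbrain. Lhx1 (ENSMUSG00000018698.15, chromosome 11 from 84518284 to 84525535, minus strand) had a mean normalized count of 4686 at E13.5 and of 903 at E18.5. Its level was 164 CPM at E13.5 and 36.8 at E18.5, 4.46-fold lower at the later age. Lhx5 (ENSMUSG00000029595.9, chromosome 5 from 120431699 to 120441223, plus strand) had mean normalized counts of 2286 and 337. In CPM it was at 80.0 and 13.7, a level 5.84-fold lower at E18.5, the largest difference among the 10 genes. The log2 ratio of Lhx5 was at percentile 0.315 of all genes with a mean of at least 10 at both ages, and that of Lhx1 at percentile 0.686. Per kilobase Lhx1 was above Lhx5 at both ages, 1.35 times at E13.5 and 1.77 times at E18.5. Their binding partners did not all go the same way. Ldb1, the LIM domain binding protein found in most cells, was at 265 and 152 CPM, and Ssbp3, which binds and stabilizes Ldb proteins, was at 466 and 278. Ldb2, the second LIM domain binding protein, was 4.56-fold higher at E18.5, at 19.7 and 89.9.

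Ebf2 and Ebf3 encode helix-loop-helix transcription factors of early neurons, and Ebf genes are also expressed in mesenchyme around the brain. Ebf3 (ENSMUSG00000010476.14, chromosome 7 from 137193673 to 137314445, minus strand) had the highest level per kilobase of the 10 genes at E13.5. Its mean normalized count was 13171 and its level 461 CPM at that age, at percentile 99.3 of all genes with reads. At E18.5 its mean normalized count was 3654 and its level 149, with a log2 ratio of -1.63. Ebf2 (ENSMUSG00000022053.13, chromosome 14 from 67233292 to 67430918, plus strand) had mean normalized counts of 3439 and 602. Its level was 120 CPM at E13.5 and 24.5 at E18.5, 4.91-fold lower. Ebf1, a family member that is not among the 10 genes, had a log2 ratio of -1.08, while that of Ebf4 was 0.23. Of the summed level per kilobase of the 4 Ebf genes, Ebf3 made up 52.1% at E13.5 and 44.0% at E18.5, and the share of Ebf2 was 18.1% and 9.66%. Markers of head mesenchyme and bone were also lower at E18.5 in 4 of 4 genes, with a median log2 ratio of -1.08 and a summed level of 725 CPM at E13.5 and 411 at E18.5. Over all 17794 genes with a mean of at least 10 at each age, the median log2 ratio was -0.07 and 45.6% were higher. Twist1, a transcription factor of mesenchyme, was at 8.50 and 1.38 CPM. The part of mesenchyme in the levels of the Ebf genes was not tested.

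**Figure D3:**
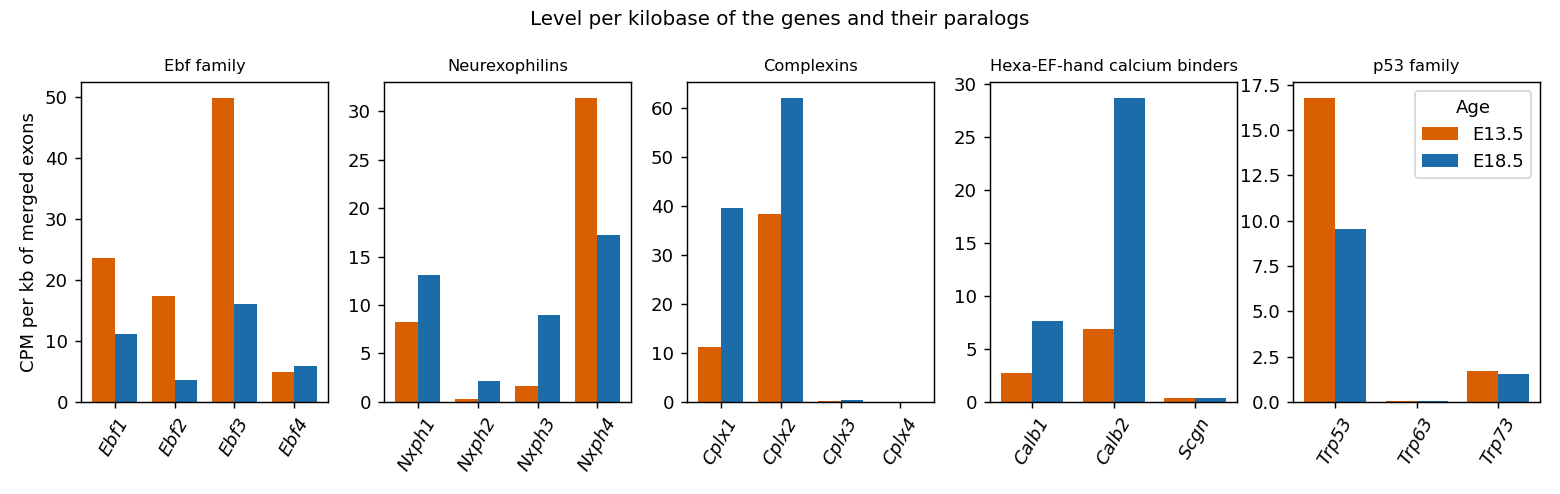
Level per kilobase of merged exons (CPM per kb, each panel with its own axis from 0) at E13.5 (orange) and E18.5 (blue) for the genes and their paralogs. Ebf3 led its family at both ages with 49.9 and 16.1, Nxph4 led the neurexophilins with 31.4 and 17.2, and Cplx3 is barely visible beside Cplx2 with 0.181 and 0.493.

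Trp73 encodes p73, a relative of p53 that is a selective marker of Cajal-Retzius cells of the cortical hem and septum and is also made in cells of the choroid plexus and ependyma. Trp73 (ENSMUSG00000029026.16, chromosome 4 from 154056253 to 154140208, minus strand) had a mean normalized count of 267 at E13.5 and of 206 at E18.5. Its level was 9.34 CPM at E13.5 and 8.40 at E18.5, with a log2 ratio of -0.15 that lay at percentile 43.8 of all genes. Among all genes with reads Trp73 was at percentile 66.8 at E13.5 and 66.9 at E18.5, where Lhx1 was at 95.7 and 82.0. Of the summed level per kilobase of the p53 family, Trp53 made up 90.6% at E13.5 and 85.8% at E18.5, Trp73 made up 9.11% and 13.7%, and Trp63 made up 0.270% and 0.522%.

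Calb2 encodes calretinin, a calcium-binding protein and a common marker of Cajal-Retzius cells that many other neurons make as they mature. Calb2 (ENSMUSG00000003657.9, chromosome 8 from 110137502 to 110168210, minus strand) had a mean normalized count of 345 at E13.5 and of 1229 at E18.5. In CPM it was at 12.1 and 50.03, 4.15-fold higher at E18.5, the largest difference upward among the 10 genes. Its percentile among all genes with reads was 69.1 at E13.5 and 85.6 at E18.5. Calb1, which encodes calbindin, was 2.79-fold higher at E18.5, at 13.4 and 37.2 CPM, and Scgn, which encodes secretagogin, was at 0.572 and 0.590. Calb2 made up 69.0% of the level per kilobase of these 3 calcium-binding proteins at E13.5 and 78.1% at E18.5.

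Nxph4 and Cplx3, which mark the subplate in cortex, went in opposite directions. Nxph4 (ENSMUSG00000040258.6, chromosome 10 from 127525473 to 127534559, minus strand) encodes a secreted neurexophilin, a ligand of neurexins at synapses. Its mean normalized count was 1504 at E13.5 and 710 at E18.5, and its level was 52.6 and 28.9 CPM, 1.82-fold lower at E18.5. The other neurexophilins were higher at E18.5. Nxph1 went from 39.1 to 62.1 CPM, Nxph2 from 0.745 to 5.66, and Nxph3 from 3.40 to 18.9. The share of Nxph4 in the level per kilobase of the family was accordingly 75.6% at E13.5 and 41.6% at E18.5.

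Cplx3 (ENSMUSG00000039714.9, chromosome 9 from 57599992 to 57606281, minus strand) encodes a complexin, a small protein that binds the SNARE complex and controls vesicle release, known from subplate neurons and from ribbon synapses of the retina. It had the lowest level per kilobase of the 10 genes, with mean normalized counts of 15.3 at E13.5 and 35.7 at E18.5. These means correspond to between 76 and 105 adjusted reads over all libraries at E13.5 and to between 271 and 334 at E18.5, so that the counting error was up to 11.5% and 6.08%. The level of Cplx3 was 0.534 CPM at E13.5 and 1.45 at E18.5, 2.73-fold higher. Dio3-/- fetuses were 2 of the 6 at E13.5 and 5 of the 8 at E18.5, so age and genotype mix cannot be told apart for Cplx3. Cplx1 and Cplx2, the complexins of most brain synapses, were 3.56-fold and 1.61-fold higher, and Cplx3 made up 0.363% of the level per kilobase of the complexins at E13.5 and 0.481% at E18.5. The retinal genes Cplx4, Crx and Nrl had mean normalized counts of 0.373, 8.38 and 5.43 at E13.5 and of 0.385, 6.33 and 9.95 at E18.5. Over the other 9 genes the counting error was at most 2.75% at E13.5 and 2.53% at E18.5, both for Trp73. These errors cover counting only and not the spread between fetuses.

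Ordered by level per kilobase, the sequence at E13.5 was Ebf3 (49.9), Lhx1 (40.3), Nxph4 (31.4), Lhx5 (29.7), Dab1 (17.4), Ebf2 (17.4), Reln (9.94), Calb2 (6.92), Trp73 (1.69) and Cplx3 (0.181). At E18.5 the order was Calb2 (28.7), Dab1 (27.4), Reln (17.9), Nxph4 (17.2), Ebf3 (16.1), Lhx1 (9.03), Lhx5 (5.09), Ebf2 (3.54), Trp73 (1.52) and Cplx3 (0.493). Transcription factors took ranks 1, 2, 4, 6 and 9 at the earlier age and ranks 5, 6, 7, 8 and 9 at the later one. Without a spread over fetuses, neighbours in these orders cannot be separated. With the length of the longest transcript in place of merged exons, Dab1 (41.0), Reln (36.4) and Calb2 (35.0) led at E18.5 in that order.

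The other markers of Cajal-Retzius cells also lay on both sides. Of 5 such markers 3 were higher and 2 were lower at E18.5, while 45.6% of the 17794 genes with a mean of at least 10 at each age were higher. Nhlh2, a helix-loop-helix factor of young neurons, was at 164 CPM at E13.5 and at 36.5 at E18.5, with a log2 ratio of -2.17, close to that of Lhx1 at -2.16. Cxcr4, the chemokine receptor that keeps Cajal-Retzius cells at the pia, had a log2 ratio of -0.86. Tbr1, a T-box factor also made by the deep layers and the subplate, was 2.15-fold higher, Ndnf was 2.16-fold higher, and Cacna2d2, a calcium channel subunit, was 1.23-fold higher. Genes of the cortical hem, the midline source of many Cajal-Retzius cells, were lower. Of the 4 with a mean of at least 10 at both ages, all 4 were lower, with a median log2 ratio of -1.19. The median of all 17794 genes was -0.07. Wnt8b was at 13.8 CPM at E13.5 and 1.53 at E18.5, and Lmx1a was at 19.3 and 5.54. Wnt3a had a mean normalized count of 78.3 at E13.5 and of 3.42 at E18.5.

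Of 8 other subplate markers 6 were higher at E18.5 and 2 were lower, with a median log2 ratio of 0.62. For comparison, 45.6% of the 17794 genes with a mean of at least 10 at each age were higher, with a median of -0.07. Hs3st4, a heparan sulfate sulfotransferase, was 3.84-fold higher, and Kcnab1, a potassium channel subunit, was 2.44-fold higher. Inpp4b, Moxd1, Ccn2 and Lpar1 were 1.88-fold, 1.54-fold, 1.53-fold and 1.05-fold higher. The orphan receptor gene Nr4a2 was at 64.2 and 62.9 CPM, and Tmem163 was at 43.8 and 35.8. Nxph4 thus had a lower log2 ratio, -0.87, than each of these 8 markers, while that of Cplx3, 1.45, lay within their range.

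**Figure D4:**
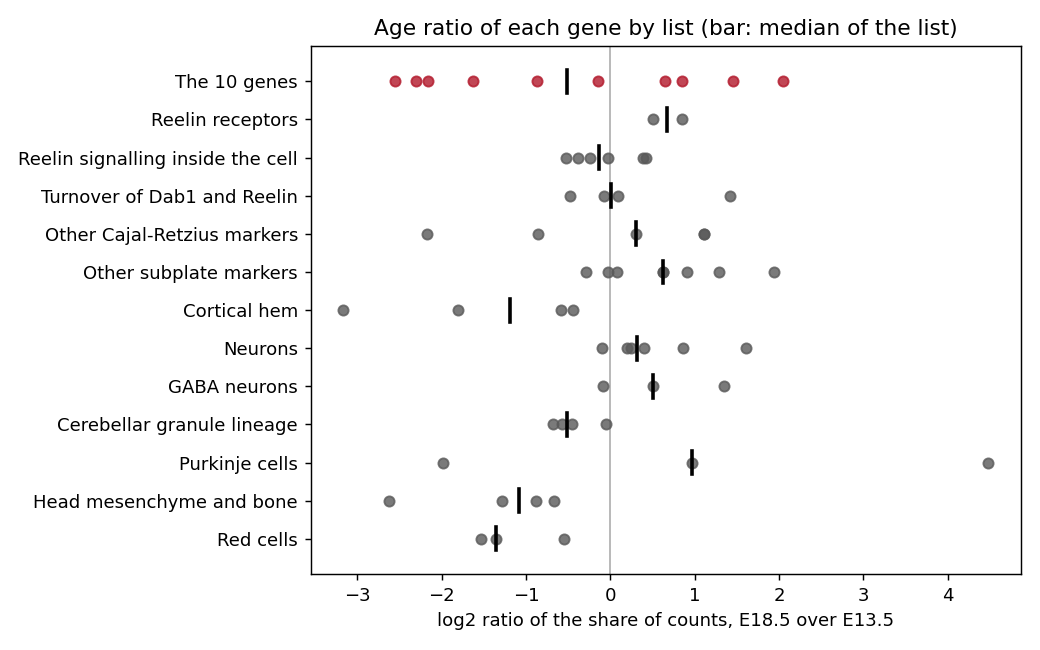
log2 ratio of E18.5 over E13.5 for each gene whose mean normalized count reached 10 at each age, by list, with the median of the list as a bar. The 10 genes (red) run from -2.55 to 2.05, the cortical hem genes are all below 0, and the other subplate markers have a median of 0.62.

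Markers of other cells in the brain moved in both directions between the ages. Of the 6 neuronal markers 5 were higher at E18.5 and Tubb3 was lower (log2 ratio -0.10), with a median log2 ratio of 0.32. Of the 3 markers of GABA neurons 2 were higher, with a summed level of 270 CPM at E13.5 and 388 at E18.5. All 4 markers of the cerebellar granule lineage were lower, with a summed level of 473 and 427, but none by 2-fold. Zic1 held most of that sum and hardly differed, at 362 and 350 CPM (log2 ratio -0.05). The log2 ratios of Atoh1, Pax6 and Barhl1 were -0.68, -0.57 and -0.46. Of the 17794 genes with a mean of at least 10 at each age, 45.6% were higher. Among the markers of Purkinje cells, which make Lhx1 and Lhx5 early, Skor2 was at 17.3 and 4.38 CPM while Car8 was at 1.61 and 35.9 and Pcp2 at 0.502 and 0.983. The part of these neurons in the levels of the 10 genes was not tested. As a measure of blood in the tissue, the red cell genes Hba-a1, Hbb-bt and Alas2 were all lower at E18.5, with a summed level of 169 and 68.3.

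Exons of 5 of the 10 genes overlap those of an annotated antisense RNA on the opposite strand, and reads were counted without regard to strand. The share of all genes with such an overlap was not computed, so that this count is not a trait of the 10 genes. The overlap was 246 bases of Reln with Gm10475, 280 of Trp73 with Trp73os, 69 of Lhx5 with Gm27199, 424 of Ebf2 with Gm10860 and 355 of Ebf3 with Gm45278. It made up at most 6.12% of the merged exons of a gene, in Ebf2. Gm45278 had a mean normalized count of 118 at E13.5 and of 12.2 at E18.5, and Gm27199 had 157 and 43.0, so that both antisense RNAs were lower at the later age like Ebf3 and Lhx5 beside them. The study's methods give the union mode of HTSeq, in which a read over exons of both genes is assigned to neither. The effect of the overlaps on these counts was not tested. Gm10475, Trp73os and Gm10860 had means below 10 at both ages.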

How the data were processed

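RNA of whole fetal brains was sequenced after removal of ribosomal RNA. According to the study's methods and processing notes, the authors trimmed reads with cutadapt 3.1, aligned them with STAR 2.5.3a to GRCm38, removed rRNA and tRNA with bedtools 2.26.0, counted reads on GENCODE VM22 genes with HTSeq without strand, used ComBat-seq to adjust for 2 sequencing batches, and then applied DESeq2 1.30.1 within each age. The adjustment can change the levels. The deposited mean normalized count is a signal, the counts divided by size factors and averaged over all libraries of the age. The other measurement columns hold the authors' comparison of genotypes (log2 fold changes with their errors, statistics and p-values) and were not used.

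Here the means were divided by their sum at each age (CPM), and levels between genes by the length of merged exons. Positions and lengths came from GENCODE M21 (GRCm38), in which 41897 genes were matched by identifier and 37 were not. No test was made, because the tables give no value per library. Recovery of the size factors was tested on simulated data. Reads behind a mean were bounded by dividing it by the highest and the lowest value of 1 read, and the counting error is the inverse square root of the lower bound. Python 3.11.15, numpy 2.4.6 and pandas 2.3.3 were used. The members and lists were chosen with earlier results of these data known. The genes named are the 10 members, the genes of the lists of pathway partners, paralogs and cell markers, the genes with overlapping exons, and Dio3 and Gm26917. Gm26917 was named after its value was seen. Some genes of the lists are not reported here.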

Additional observations from a re-analysis of the deposited data

How the results depend on the processing

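The number of the 10 genes with a higher level at E18.5 was 4 under each of the 3 other scalings between the ages, and no gene changed direction under them. In a comparison chosen after seeing the data, 4 genes were at least 2-fold lower at E18.5 and 2 at least 2-fold higher with each scaling, except that 5 were lower, Nxph4 among them, with the means as deposited. Their median log2 ratio of -0.51 became -0.44 when the ages were scaled by the median of ratios, -0.55 with the sum over protein-coding genes and -0.73 with the means as deposited. The median over all genes was 0.00, -0.10 and -0.28 under these scalings, against -0.07. The median percentile of the 10 genes, 91.7 at E13.5 and 80.6 at E18.5, was 86.2 and 67.6 among protein-coding genes, 86.0 and 66.1 among genes with a mean of at least 10, and 91.1 and 87.5 per kilobase. The number of genes with a mean of at least 100, 9 at each age, was also 9 with a minimum of 50. Summing all entries of a symbol could change no value, because each symbol had 1 entry. The median level per kilobase, 17.4 at E13.5 and 12.6 at E18.5, was 24.6 and 13.4 with the longest transcript. No paired analysis was possible because the tables hold no value per library, and for the same reason no library could be left out. Depth limits Cplx3 most.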
